A study of Mus musculus with 6 samples.

Results

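Notch signalling was examined through 10 genes: the receptors Notch1, Notch2 and Notch3, the ligands Jag1, Jag2 and Dll1, the target genes Hes1, Hey1 and Heyl, and the transcription factor Rbpj. They were chosen by symbol, through the Ensembl gene IDs of 24938 listed genes, and all 10 were found. The libraries are RNA sequencing libraries of NIH3T3, a long-established line of mouse embryo fibroblasts. Controls are 3 libraries of genotype wild type. The 3 other libraries are of cells overexpressing F-CircAE, a fusion circular RNA (a transcript whose ends are joined) related to AML1-ETO, the RUNX1-RUNX1T1 fusion of human acute myeloid leukaemia. No treatment, time, culture or clone is given for either group. No label says whether the controls carried an empty vector, so F-CircAE and the procedure used to overexpress it cannot be told apart. Nothing says that libraries of a group are separate cultures, so a p-value here reflects library-to-library spread that may be technical alone.

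In the Notch pathway a membrane-bound ligand of the Jagged or Delta-like family on one cell binds a Notch receptor on its neighbour. The receptor is then cut by an ADAM protease and by gamma-secretase, and its intracellular part enters the nucleus. There it joins the DNA-binding protein RBPJ and a Mastermind coactivator and switches on genes such as those of the Hes and Hey repressors. Without Notch, RBPJ sits with corepressors on the same genes. In fibroblasts Hes1 is also known for responding to serum and for oscillating through its own negative feedback.

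Values are FPKM, that is fragments scaled by the authors to gene length and to a library size whose definition is not given. Sequencing was paired-end, so what is called a read below can be a pair of reads. The reads behind them were recovered from the FPKM steps and numbered 16968180 to 21842251 per library. These totals are minima, since for 5105 genes the shortest length that gave whole reads was used. The chi-square values that follow rest on the same reads and can be too low. Between control replicates 1 and 2 the chi-square per gene was 1.45, little above the value of 1 that counting alone gives. The other 14 pairs of libraries lay between 5.01 and 24.6. If control replicates 1 and 2 share an RNA or a culture, control errors at n = 3 may be too small. Fibroblast markers were present in every library, with 13 of 14 above a mean of 1 FPKM and a summed level of 2054 to 2596 FPKM in the controls and 1855 to 2274 with F-CircAE. The 6 listed of 8 endothelial markers summed to at most 1.19 FPKM, with the defining markers Pecam1 and Cdh5 below 1 FPKM in each library. The 6 listed of 7 haematopoietic markers summed to 17.9 to 25.6 FPKM, nearly all from Lyz2, with the defining Ptprc at 0.012 FPKM or less. The 5 listed of 8 epithelial markers summed to 5.95 to 8.81 FPKM, mostly from Krt14 and the defining Cdh1 (2.19 to 2.82 FPKM). Epcam, also defining, was not listed. The 4 listed of 6 neural markers summed to 5.88 to 11.9 FPKM, mostly from Tubb3, with the defining Rbfox3 at 0.018 FPKM or less. Smooth muscle markers summed to 2.21 to 2.70 FPKM, mostly from Des, with the defining Myh11 at 0.098 FPKM or less. The part of these transcripts in the results was not tested.

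The genes differed in level by orders of magnitude, and this order was the same in both groups for the upper 6. Over all 6 libraries Rbpj averaged 18.98 ± 2.47 FPKM, Notch2 12.6 ± 0.62 and Jag1 10.03 ± 0.68 (SD, n = 6). Hes1 followed with 2.03 ± 0.44, Jag2 with 0.68 ± 0.21 and Notch1 with 0.38 ± 0.07 FPKM (SD, n = 6). The ranges of neighbours in this order did not overlap over the libraries, except those of Jag2 and Notch1, although Jag2 lay above Notch1 within each of the 6 libraries. Below them stood Notch3 with 0.045 FPKM, Heyl with 0.011, Hey1 with 0.0051 and Dll1 with 0.0047, with ranges that overlapped between neighbours in this order. FPKM is a level per gene length, so these genes can be set beside each other where that length is known. For Jag2 and Notch3 the annotated length gave no whole reads, so the length behind their FPKM is not known. The place of Jag2 above Notch1 may depend on it.

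**Figure D1:**
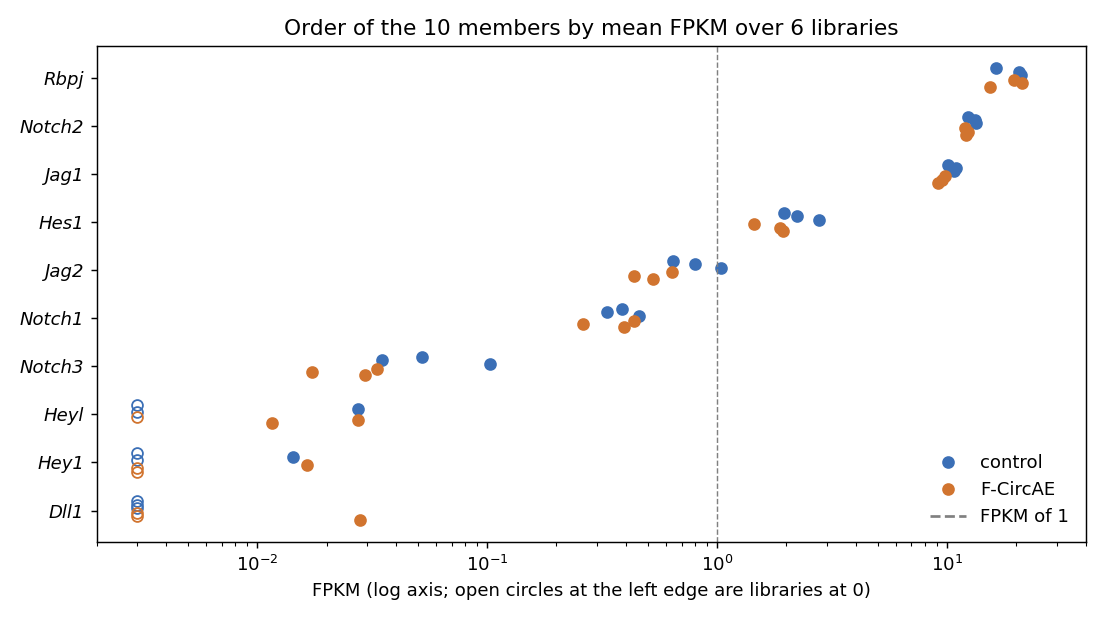
FPKM of each of the 10 genes (log axis) in the 3 control and 3 F-CircAE libraries, ordered by the mean over all 6, with libraries at 0 drawn as open circles at the left edge. Rbpj, Notch2, Jag1 and Hes1 lie above 1 FPKM in all 6 libraries, and Hey1, Heyl and Dll1 are at 0 in 3 or more of them.

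No member passed the test between F-CircAE and control. Of the 10 genes, 4 (Notch2, Jag1, Hes1 and Rbpj) exceeded 1 FPKM in at least 3 libraries and were tested with limma on log2(FPKM + 1). None of the 4 was called at an adjusted p of 0.05, and neither was any of the 12222 genes tested (0%). An unadjusted p below 0.05 was reached by 632 genes (5.17%) and by 0 of the 4. The 4 estimates were all below 0, with a median log2 fold change of -0.12, beside 46.8% of estimates below 0 and a median of 0.01 over all tested genes. The groups did not overlap for Jag1 and Hes1, both lower with F-CircAE, where 4.69% of all tested genes were separated in that direction. After rescaling the libraries to their upper quartile or to their FPKM sum Notch2 was separated towards lower values as well, and so were 6.2% and 9.87% of all genes. With 3 against 3 libraries the smallest exact permutation p is 0.1.

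**Figure D2:**
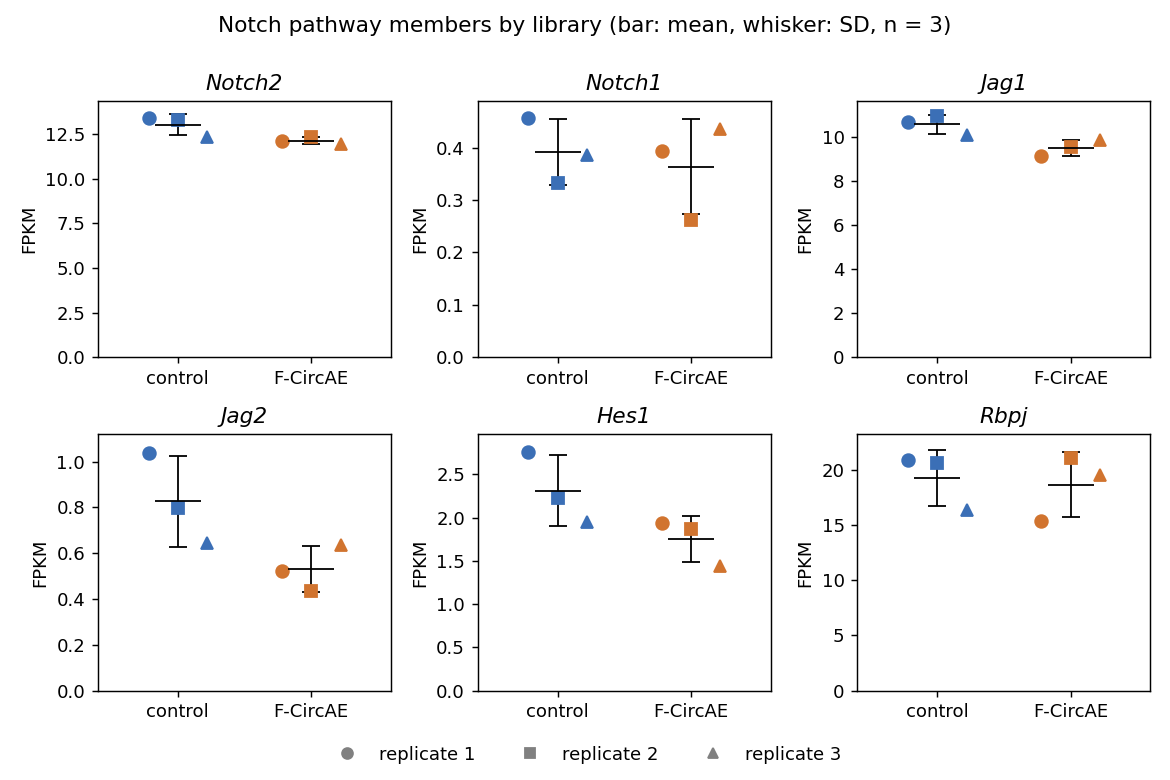
FPKM (linear axes from 0) of the 6 more abundant genes in each control and F-CircAE library, with replicate numbers as symbols, the group mean as a bar and the SD as a whisker (n = 3). Control replicate 3 is the lowest control library for Notch2, Jag1, Jag2, Hes1 and Rbpj. The group separation of Jag1, Jag2 and Hes1 rests on a narrow gap to that library, within counting error for each of them.

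Among the receptor genes, Notch2 made up most of the summed FPKM. It lies on chromosome 3 from 98013527 to 98150361 (ENSMUSG00000027878, mm10) and encodes one of 4 mouse Notch receptors. On the same strand it shares 541 exonic bases with Gm42820, so a part of its reads can belong to either. Control libraries held 13.4, 13.3 and 12.35 FPKM in replicates 1, 2 and 3, against 12.1, 12.35 and 11.9 with F-CircAE. Control replicate 3 and F-CircAE replicate 2 met at the same level, so the groups touched. Group means of 13.02 ± 0.58 FPKM in control and 12.1 ± 0.21 with F-CircAE (SD, n = 3) came with a log2 fold change of -0.09 (95% interval -0.23 to 0.04; limma adjusted p = 0.843). Notch2 made up 77.4% to 81.4% of the summed FPKM of the 4 receptors in the 6 libraries. Notch4, a receptor gene outside the 10, held 16.4% to 19.9% and Notch1 1.67% to 2.94%.

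Notch1 (chromosome 2, 26457903 to 26516663, ENSMUSG00000026923) encodes the receptor best known from T-cell leukaemia. Its control libraries stood at 0.46, 0.33 and 0.39 FPKM and its F-CircAE libraries at 0.39, 0.26 and 0.44, from 80 to 133 reads each. The groups overlapped widely, and Notch1 was too low for the test. Its exons share 1482 bases with genes on the other strand, 0610009E02Rik and Gm13568, and the use of strand in counting is not given in the sources used here, so part of its reads is uncertain. Limma-voom, run on reads recovered for genes with at least 10 reads in 3 libraries, estimated a log2 fold change of -0.14 (SE 0.22).

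Notch3 (chromosome 17, 32120820 to 32166852, ENSMUSG00000038146), a receptor typical of vascular smooth muscle and pericytes, was near the limit of detection. The 3 control libraries held 17, 6 and 8 reads, or 0.10, 0.035 and 0.052 FPKM. The F-CircAE libraries held 4, 3 and 5 reads, or 0.017 to 0.033 FPKM. The annotated length of Notch3 gave no whole reads, so these reads come from the shortest length that did and are a minimum. The 3 control libraries lay above the 3 others, but the lowest control library (6 reads, exact Poisson 95% interval 2.20 to 13.1) and the highest F-CircAE library (5 reads, 1.62 to 11.7) were within counting error. Its exons share 488 bases with Gm17276 on the other strand. Such intervals cover counting error only, since reads of amplified libraries are not independent molecules.

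The ligands were represented almost entirely by Jag1. Jag1 (chromosome 2, 137081456 to 137116644, ENSMUSG00000027276) held 10.7, 10.9 and 10.08 FPKM in the control libraries and 9.12, 9.53 and 9.84 in those with F-CircAE. All 3 F-CircAE libraries lay below all 3 controls, with the gap between 10.08 and 9.84 FPKM. Counting alone gave 9.50 to 10.69 FPKM for control replicate 3 and 9.26 to 10.45 for F-CircAE replicate 3 (exact Poisson 95% intervals). These 2 libraries were thus within counting error of each other. Controls averaged 10.6 ± 0.43 FPKM and F-CircAE libraries 9.497 ± 0.36 (SD, n = 3), so that the control mean was 1.11 times the other. The estimate was -0.14 in log2 (SE 0.06, 95% interval -0.28 to 0.00076; limma adjusted p = 0.842). With array weights, which give each library a weight from its estimated quality, Jag1 was the 1 member called (log2 fold change -0.16, limma adjusted p = 0.030), in a fit that called 18.3% of all genes and 7.28% as lower. It was not called when array weights were estimated anew after averaging control replicates 1 and 2 to 1 library (limma adjusted p = 0.916). Over all its alternatives the limma adjusted p of Jag1 ran from 0.030 to 0.9999.

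Jag2 (chromosome 12, 112907819 to 112929776, ENSMUSG00000002799), the other Jagged ligand, was about an order of magnitude lower. Controls held 1.04, 0.80 and 0.64 FPKM in replicates 1, 2 and 3, and F-CircAE libraries 0.52, 0.44 and 0.63. The groups did not overlap, but control replicate 3 (0.644 FPKM) and F-CircAE replicate 3 (0.634 FPKM) were nearly equal. Over all listed genes without a filter, 5.05% were separated towards lower values, and so were 4 of the 10 members (Jag1, Jag2, Hes1 and Notch3). The mean of the controls was 0.83 ± 0.20 FPKM and that of the F-CircAE libraries 0.53 ± 0.10 (SD, n = 3), a ratio of 1.55. With 1 library above 1 FPKM it was not tested in the comparison above. In limma-voom its estimate was -0.63 (SE 0.25; unadjusted p = 0.028, limma adjusted p = 0.846), the estimate farthest from 0 among the 6 members tested there. That fit called 0 of 14472 genes, with 755 at an unadjusted p below 0.05. Its annotated length gave no whole reads, so these 36 to 86 reads per library come from the shortest length that did and are a minimum.

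Dll1 (chromosome 17, 15367354 to 15376872, ENSMUSG00000014773), a Delta-like ligand, had 0 reads in all 3 control libraries and 2, 0 and 0 with F-CircAE. Its exons share 867 bases with A930024N18Rik on the other strand, so the gene behind these 2 reads is uncertain. A count of 0 allows up to 3 reads, or 0.033 to 0.038 FPKM in the 5 libraries without a read, so Dll1 was at or under this limit in each library and no fold is given. The ligand genes Dll3 and Dll4 were also scarce, at 0.029 ± 0.020 and 0.056 ± 0.037 FPKM in the controls (SD, n = 3). Jag1 thus made up 90.6% to 94.7% of the summed FPKM of the 5 ligand genes Jag1, Jag2, Dll1, Dll3 and Dll4. Summed, these ligands came to 11.77, 11.8 and 10.8 FPKM in the control libraries and to 9.79, 10.06 and 10.5 with F-CircAE.

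Of the target genes, Hes1 had the estimate farthest from 0 among the 4 tested members, at a pseudocount of 1. Hes1 (chromosome 16, 30064384 to 30067796, ENSMUSG00000022528) encodes a basic helix-loop-helix repressor. Control replicates 1, 2 and 3 held 2.76, 2.23 and 1.95 FPKM, from 115, 97 and 76 reads. The F-CircAE libraries held 1.94, 1.87 and 1.45 FPKM, from 67, 82 and 55 reads. The controls were spread widely, and the lowest of them was nearly at the level of the highest F-CircAE library. Counting alone gave 1.54 to 2.44 FPKM for the former, control replicate 3, and 1.51 to 2.47 for the latter, F-CircAE replicate 1 (exact Poisson 95% intervals).

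The Hes1 means were 2.31 ± 0.41 FPKM in control and 1.75 ± 0.27 with F-CircAE (SD, n = 3), the former 1.32 times the latter. In log2(FPKM + 1), a scale that compresses differences of low genes, the estimate was -0.26 (SE 0.13, 95% interval -0.56 to 0.03; limma adjusted p = 0.842). The size of the estimate moved with the pseudocount, from -0.38 at 0.1 to -0.11 at 5, where Jag1 lay close by at -0.10. It was -0.17 without control replicate 1 and -0.34 without control replicate 3, and limma-voom gave -0.40 (SE 0.20). Hes1 was not called in any alternative that tested it (limma adjusted p from 0.059 to 0.9999), including array weights (limma adjusted p = 0.059).

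Hey1 and Heyl, which encode the related Hairy/E(spl) repressors with a YRPW-type motif, were practically unread. Hey1 (chromosome 3, 8663359 to 8667256, ENSMUSG00000040289) had 1 read in control replicate 2, 1 in F-CircAE replicate 3 and 0 in the others. Heyl (chromosome 4, 123233556 to 123249875, ENSMUSG00000032744) had 3 reads in control replicate 2, 1 in F-CircAE replicate 1, 3 in F-CircAE replicate 2 and 0 in the others. A library at 0 allows up to 0.043 to 0.054 FPKM of Hey1 and 0.029 to 0.031 of Heyl at a limit of 3 reads. No difference between the groups was detectable for either gene at this depth. Among the Hes and Hey genes the place beside Hes1 was taken by Hes6, which encodes a family member known to antagonise Hes1. Hes6 stood at 2.12 ± 0.19 FPKM in control and 2.04 ± 0.40 with F-CircAE (SD, n = 3; limma adjusted p = 0.945), and Hes1 and Hes6 held 34.8% to 52.3% and 37.9% to 51.3% of the summed FPKM of Hes1, Hes3, Hes6, Hes7, Hey1 and Heyl.

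Rbpj (chromosome 5, 53466152 to 53657362, ENSMUSG00000039191), which encodes the DNA-binding factor of the pathway, had the highest level of the 10 genes and no common direction. Its level was 20.9, 20.6 and 16.4 FPKM in control replicates 1, 2 and 3, against 15.4, 21.1 and 19.5 in F-CircAE replicates 1, 2 and 3. The low libraries were 1 of each group, control replicate 3 and F-CircAE replicate 1, and the groups overlapped. Group means of 19.3 ± 2.53 FPKM in control and 18.7 ± 2.92 with F-CircAE (SD, n = 3) came with a log2 fold change of -0.05 (95% interval -0.37 to 0.27; limma adjusted p = 0.947). The sign depended on the setting. The estimate was 0.076 without F-CircAE replicate 1 and -0.16 without control replicate 3.

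The same pair of libraries was also low in Pdgfrb, a mesenchymal receptor gene that is both a fibroblast marker and a reported Notch target. Pdgfrb held 17.8, 17.1 and 7.60 FPKM in the controls and 6.91, 11.9 and 11.5 with F-CircAE, and Pdgfra held 25.4, 24.5 and 17.6 in the controls and 14.9, 22.1 and 21.8 with F-CircAE. These libraries were the lowest pair for 9 of the 14 fibroblast markers (Col1a1, Col1a2, Col3a1, Pdgfra, Pdgfrb, Fn1, Postn, Ddr2 and Twist1), beside 15.1% of all tested genes. Of the 9, Postn at 0.030 to 0.16 FPKM was too low to be among the tested genes. The pair was not the lowest for Vim, S100a4, Thy1, Prrx1 and Twist2. Vim held 606 FPKM in control replicate 3, above the 563 and 560.3 of control replicates 1 and 2, and Prrx1 held 16.3 FPKM in control replicate 3 and 22.2 in F-CircAE replicate 1. The part of this difference between libraries in the values of Rbpj was not tested. In such bulk libraries fewer cells with a transcript and less of it per cell cannot be told apart.

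RBPJ is known to bind a core of TGGGAA, and among the members with a promoter entry these letters were found for Rbpj only. Promoter sequences (RefSeq, GRCm38.p6, 250 bases before to 50 after a gene start) were at hand for 7 of the 10 members, in 9 entries. The promoters of Hes1, Hey1 and Heyl were not searched. The core, searched on both strands as TGGGAA or TTCCCA, was found in 25.6% of all 32851 entries and in 2 of these 9, both of Rbpj. The matches are shown in capitals within 30 bases of the plus strand, at chr5:53590185-53590214 and chr5:53590269-53590298, both overlapping annotated Rbpj exons. They are shown because they stand beside a start of the gene that encodes the factor itself.
Rbpj, TGGGAA on the plus strand: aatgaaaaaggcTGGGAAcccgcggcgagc
Rbpj, TTCCCA on the plus strand: gacgctcgcattTTCCCAggacccctcctc
A match describes letters and is not a binding site, and no match in an entry says only that these letters are not in that window.

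The other genes of the pathway were read from 78 symbols in 8 lists (1 gene stands there under both Tle5 and its older symbol Aes, and was listed as Aes), of which 73 were listed and 61 tested. None of the 61 passed (limma, Benjamini-Hochberg). An unadjusted p below 0.05 was reached by 3 of the 61 (Dtx3, Epn1 and Maml1), beside 5.17% of all tested genes. Estimates lay below 0 for 38 of the 61 (62.3%, beside 46.8% of all tested genes). The median log2 fold change of the 61 was -0.05, beside 0.01 over all tested genes. The groups did not overlap for 8 lower and 2 higher genes (the latter Poglut1 and Psenen), where 4.69% and 6.81% of all tested genes were separated in these directions. These shares moved with the scaling. The FPKM sums of the libraries did not overlap between the groups, at 353510 to 370542 in the controls and 373695 to 380910 with F-CircAE. Rescaled to the upper quartile, 8 lower and 0 higher genes were separated, beside 6.2% and 4.71% of all genes. Rescaled to the FPKM sum, 11 lower and 0 higher were separated, beside 9.87% and 2.32%, and 82.0% of the estimates lay below 0, beside 67.1% of all genes.

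Genes that act on the receptor before it reaches the nucleus lay on both sides of 0. Of 4 tested genes of receptor glycosylation 2 had estimates above 0, led by Poglut1, a glucosyltransferase of EGF-like repeats, with 9.26 ± 0.35 FPKM in control and 10.2 ± 0.69 with F-CircAE (SD, n = 3; limma adjusted p = 0.842). Rfng, a Fringe glycosyltransferase, was the most abundant of them at 12.4 ± 0.87 and 11.7 ± 0.93 FPKM. Of 8 tested genes of receptor cleavage 5 had estimates below 0. Adam10, the protease of the first ligand-induced cut, stood at 49.4 ± 1.19 and 48.9 ± 4.42 FPKM, and Psenen, a gamma-secretase subunit, at 43.5 ± 1.33 and 45.9 ± 0.80 (SD, n = 3; limma adjusted p = 0.843).

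Of 13 tested genes of ubiquitination and trafficking 7 had estimates below 0. Dtx3, of the Deltex family, had the smallest p, with 35.8, 37.1 and 31.7 FPKM in the controls and 29.5, 27.5 and 31.9 with F-CircAE. The groups overlapped in control replicate 3 and F-CircAE replicate 3, and the log2 fold change was -0.23 (unadjusted p = 0.029, limma adjusted p = 0.842). Nedd4, a ubiquitin ligase, was the most abundant at 175 ± 8.33 and 176 ± 9.58 FPKM (SD, n = 3). The receptor Notch4 stood at 2.71 ± 0.12 and 2.87 ± 0.36 FPKM, and Dlk1, a non-canonical ligand, at 2.44 ± 0.69 and 1.83 ± 0.39 (SD, n = 3; limma adjusted p = 0.843).

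In the nucleus, 6 of 8 tested coactivator genes and 9 of 16 tested corepressor genes had estimates below 0, with medians of -0.12 and -0.04. Maml1, a Mastermind coactivator that joins Notch and RBPJ, held 10.09, 10.3 and 10.5 FPKM in the controls and 9.03, 9.48 and 9.21 with F-CircAE. Its groups did not overlap and its log2 fold change was -0.14 (SE 0.05; unadjusted p = 0.031, limma adjusted p = 0.842). Kat2a, a histone acetyltransferase, stood at 29.4 ± 3.36 and 31.9 ± 1.88 FPKM (SD, n = 3). Among the corepressors Tle2, of the Groucho family, held 8.92, 8.87 and 6.14 FPKM in the controls and 4.52, 5.57 and 7.45 with F-CircAE, where the groups overlapped (limma adjusted p = 0.842). Aes, a short Groucho relative, was the most abundant at 167 ± 12.9 and 161 ± 5.66 FPKM (SD, n = 3).

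**Figure D3:**
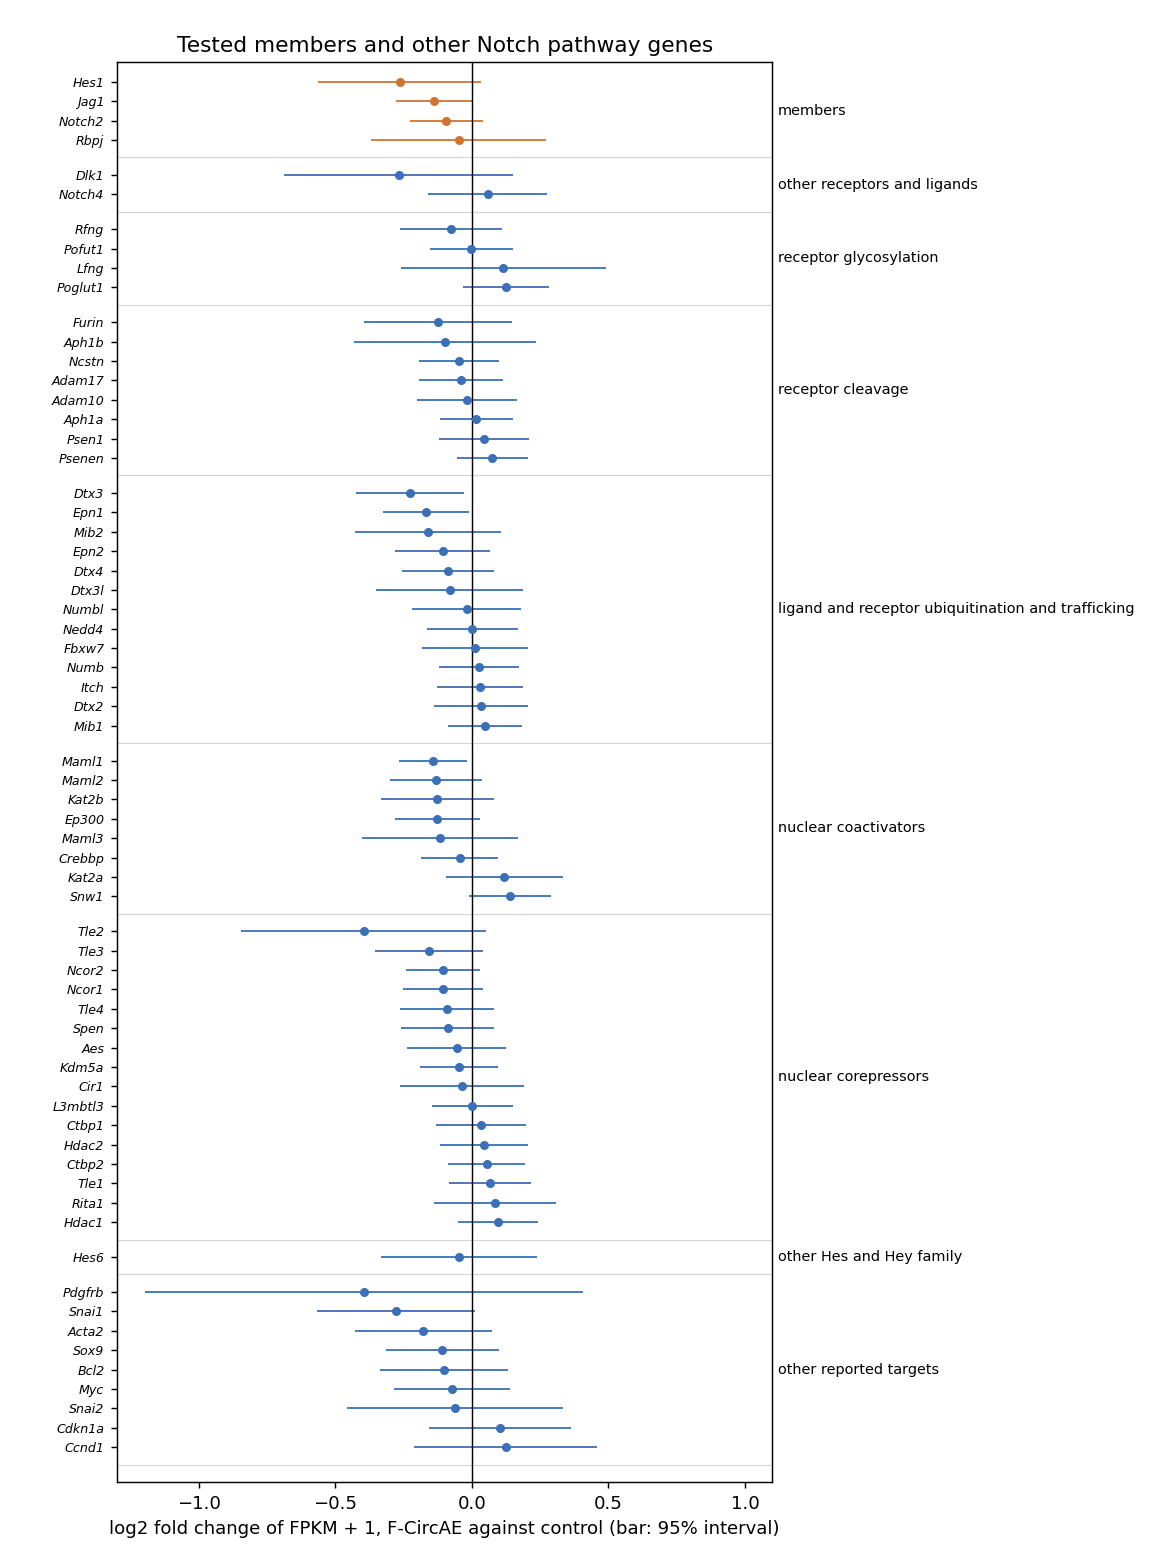
Log2 fold change of FPKM + 1 (F-CircAE against control) with its 95% interval for the 4 tested members (orange) and the 61 other tested Notch pathway genes (blue), by list. The estimates of the 4 members lie between -0.26 and -0.05, and those of the other genes between -0.40 and 0.14, with none past an adjusted p of 0.05.

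Of 9 tested reported targets outside the Hes and Hey families 7 had estimates below 0. Snai1, a transcription factor of epithelial-mesenchymal transition, held 19.2, 17.4 and 19.1 FPKM in the controls and 12.3, 16.3 and 17.3 with F-CircAE. Its groups did not overlap, with 17.4 and 17.3 FPKM as neighbours (log2 fold change -0.28, limma adjusted p = 0.842). Cdkn1a, the cyclin-dependent kinase inhibitor p21, was the most abundant of them at 141 ± 21.4 and 150.3 ± 6.46 FPKM (SD, n = 3). These genes have many regulators besides Notch.

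Genes with a profile over the 6 libraries most like those of Jag1 and Hes1 were read from the 12222 tested genes by Pearson's r of log2(FPKM + 1). The 3 most like Jag1 were Iffo1 (r = 0.99), 1810026B05Rik (r = 0.99) and Ltbp3 (r = 0.99), and 77 genes had r above 0.95. The 3 most like Hes1 were Fam193a (r = 0.996), Kcnab2 (r = 0.99) and Il15ra (r = 0.99), and 9 genes had r above 0.95. Ltbp3, which encodes a latent TGF-beta binding protein, held 43.2, 43.8 and 37.6 FPKM in the controls and 31.4, 35.1 and 36.3 with F-CircAE, following the order of the libraries in Jag1. These are descriptions over 6 points that share the library and include the near-identical control replicates 1 and 2.

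**Figure D4:**
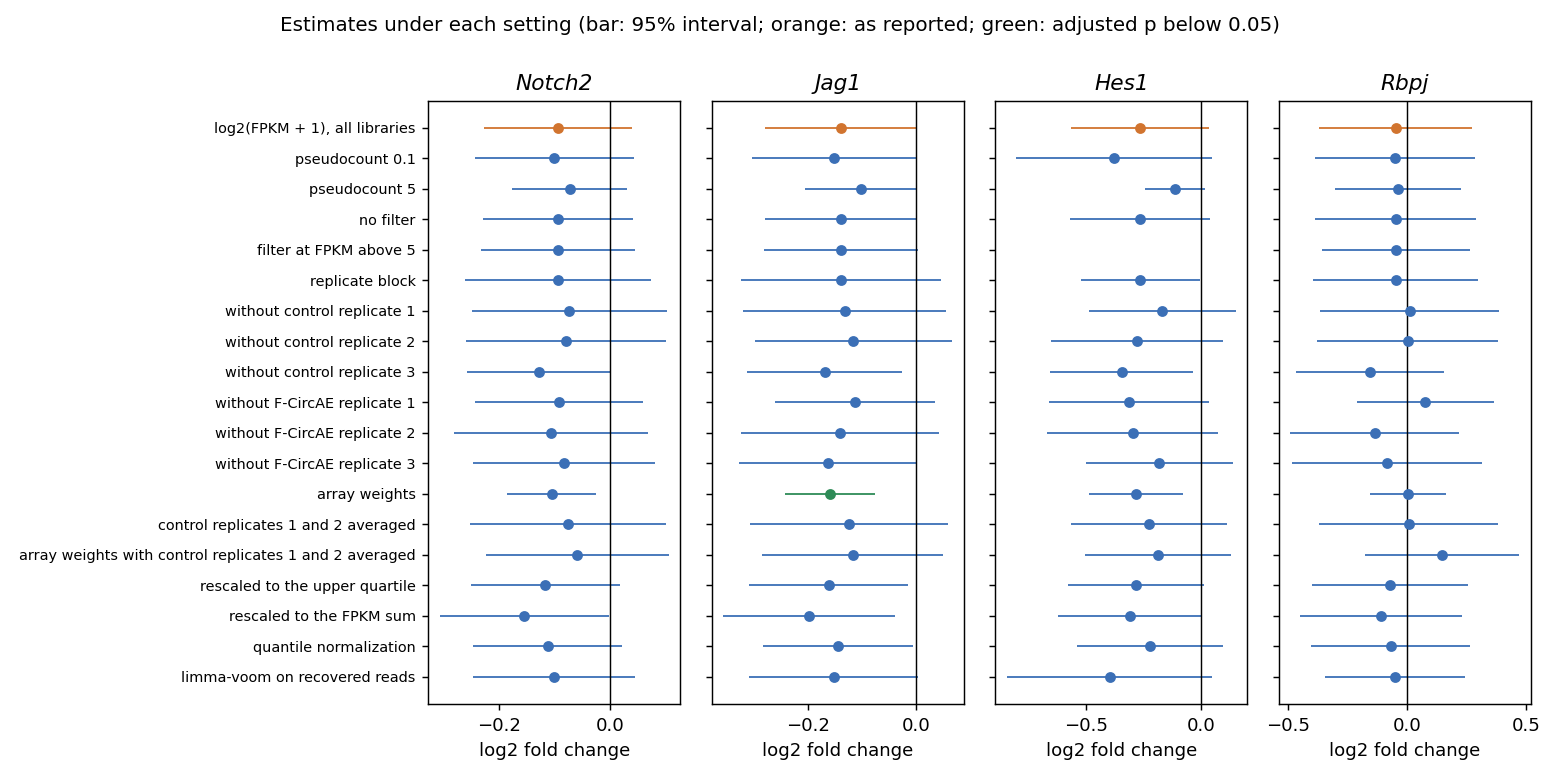
Log2 fold change (F-CircAE against control) with its 95% interval for Notch2, Jag1, Hes1 and Rbpj under each processing setting. Estimates of Notch2, Jag1 and Hes1 lie below 0 in each setting shown, Jag1 passes an adjusted p of 0.05 with array weights (green), and Rbpj lies on both sides of 0.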

How the data were processed

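The authors deposited, per the file headers, FPKM values for Ensembl gene IDs in 6 libraries. Per the labels' protocols, DNase I-digested RNA went into NEBNext Ultra libraries that were sequenced paired-end on an Illumina HiSeq. The build was mm10 per the submitters' processing notes. Aligner, counting program, strand setting and annotation: not given in the sources used here.

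Groups came from the genotype label and replicate numbers from the titles. Symbols, coordinates and exon lengths are from GENCODE M21. The 12222 genes that exceeded 1 FPKM in 3 or more libraries were tested with limma 3.58.1 in R 4.3.3 (trend and robust moderation, group as the only term) on log2(FPKM + 1), where 1 is the pseudocount, with Benjamini-Hochberg adjustment at 0.05 over all of them. The procedure was tested on simulated data. Whole reads were recovered from the FPKM steps, within 0.01 reads plus a small relative tolerance, with the annotated exon length for 19832 genes (79.5%) and otherwise with the shortest length that gave whole reads in all 6 libraries. They serve depth, counting intervals and 1 alternative, limma-voom over genes with at least 10 reads in 3 libraries.

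The members and the gene lists were chosen with earlier results of these data known. Named were all 10 members, the gene with the smallest p and the most abundant gene of each other pathway list, and the 3 genes most like Jag1 and Hes1. Notch4, Dll3, Dll4 and Pdgfrb with the other markers are context. Hes2, Hes5, Hey2 and Nrarp, searched but not among the listed names, were not analysed here. Alternatives were other pseudocounts, filters, scalings and library weights, a replicate block, averaged controls and leaving out each library.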

Additional observations from a re-analysis of the deposited data

How the results depend on the processing

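The count of 0 genes past an adjusted p of 0.05 held with pseudocounts of 0.1 and 5, no filter, a filter at 5 FPKM, rescaling to the upper quartile or the FPKM sum, quantile normalization, limma-voom and averaging control replicates 1 and 2. With array weights it was 2241 genes, of which 1 was a member (Jag1) and 13 of 61 (21.3%, beside 18.3% of all genes) were other pathway genes, 4 higher and 9 lower. Array weights with control replicates 1 and 2 averaged, an alternative chosen after seeing the data, gave 0 genes. Leaving out each library gave 0 to 2 genes. They were Ccl9 and Errfi1 without control replicate 3 and Mir7061 without F-CircAE replicate 1, none of the pathway. The number of members separated towards lower values, 2 of 4 at first, was 4 of 10 without a filter (Jag1, Jag2, Hes1 and Notch3, beside 5.05% of all genes) and 1 of 3 with a filter at 5 FPKM (Jag1, beside 3.61%), where Hes1 is not tested. It was 3 of 4, with Notch2 added, without control replicate 3 (beside 17.96% of all genes), without F-CircAE replicate 2 (7.78%) and rescaled to the upper quartile (6.2%) or the FPKM sum (9.87%). It was 3 of 6 in limma-voom (Jag1, Jag2 and Hes1, beside 5.31%). With quantile normalization Hes1 was not separated and Notch2 was (beside 4.58%). Notch2, Jag1 and Hes1 kept estimates below 0 in all alternatives run. Rbpj changed sign, at 0.0044 with array weights, 0.0053 with averaged controls, 0.15 with both and -0.16 to 0.076 over the libraries left out; the cause was not tested. Nothing in the labels says that the replicate numbers pair the libraries. Same-numbered deviations from the group means had correlations of -0.10, 0.083 and 0.0025, and differently numbered ones of -0.13 to 0.10. With control replicates 1 and 2 nearly identical, these correlations cannot decide whether the numbers pair. The fit with the replicate block called 0 genes (444 at an unadjusted p below 0.05) and 0 members. Depth limits Hey1, Heyl, Dll1 and Notch3.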
